A study of Mus musculus with 15 samples.

Results

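The genotype by DEHP interaction asked, gene by gene, whether di(2-ethylhexyl) phthalate (DEHP) changed liver mRNA by a different amount in wild-type mice than in mice without the nuclear receptor PPARα. All 15 arrays of the series entered it, as 15 of 15, because the contrast uses all 4 groups. Corn oil alone went to 4 wild-type and 4 PPARα-null animals, and DEHP in corn oil to another 4 wild-type and 3 PPARα-null animals, with 1 array for each animal. DEHP, a plasticizer, was given by gavage at 1150 mg/kg/day on 4 days. All animals were male and 7.5 months old (± 2.5 weeks). The wild-type mice were 129S1/SvlmJ and the nulls 129S4/SvJae-Pparatm1Gonz/J, both from the Jackson Laboratory. The 2 genotypes thus came from different substrains, and substrain and genotype cannot be told apart in the interaction. The null allele is carried in every cell of the animal, and whole liver was measured. In bulk liver, fewer cells of a type and less RNA per cell cannot be told apart.

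PPARα is a ligand-activated transcription factor of the hepatocyte that pairs with the retinoid X receptor. Its ligands include fatty acids and peroxisome proliferators, a class of chemicals to which the monoester formed from DEHP belongs, and its known targets carry out fatty acid uptake, ω-hydroxylation and β-oxidation. The constitutive androstane receptor CAR and the pregnane X receptor PXR sense foreign chemicals and raise cytochromes of the Cyp2b, Cyp2c and Cyp3a families. SREBP2, a membrane-bound regulator, raises the enzymes of cholesterol synthesis when sterols in the cell are low.

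Values were log2 intensities of 19938 genes, and array medians ran from 44.4 to 47.5 on the linear scale. Arrays of a group correlated at r = 0.988 to 0.992 across probe sets, and arrays of different groups at 0.983 to 0.992. Hepatocyte markers were at high levels in every group, with Hnf4a the lowest at a mean intensity of 1953 in wild-type controls. The single Ppara probe set read intensities of 798 to 943 in wild-type controls and 508 to 606 in null controls. These ranges did not overlap, and the null reading was not at 0. Which exons it covers was not analysed here. The interaction of Ppara was -0.05 ± 0.18 (limma, adjusted p = 0.939). Its sign turned without wild-type DEHP animals WT-57 or WT-59, so no direction is read from it.

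A DEHP effect is given here as the mean log2 intensity after DEHP minus that after corn oil, ± the standard error of limma. The interaction is the wild-type effect minus the null effect, so a positive value means a larger rise or a smaller fall in wild-type mice. Adjusted p values come from limma over all 19938 genes, and a gene is called where its adjusted p was below 0.05. In the interaction 179 genes were called, which is 0.898% of those tested. Of these 112 were positive (0.562%) and 67 negative (0.336%). Over all genes, called or not, 8616 interactions (43.2%) were above 0 and 56.8% below it, and the sign counts of gene lists are given against these shares. With every array centred on its median, 128 were called, and the positive share moved from 62.6% to 76.6%.

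The called genes were sorted by the size of their effects in both genotypes. A gene was wild-type-led where the null effect was below 0.5 of the wild-type effect in size, and null-led in the reverse case. It was opposed where the effects had opposite signs and the smaller was at least 0.5 of the larger. This gave 89 wild-type-led (0.446% of all genes), 60 opposed (0.301%) and 30 null-led genes (0.15%). Shared genes were those called in the average of both DEHP effects, not called in the interaction, and with effects of the same sign of which the smaller was at least 0.5 of the larger. There were 275 of them (1.38%), out of 570 genes called in the average effect (2.86%). The remaining genes were not sorted.

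**Figure D1:**
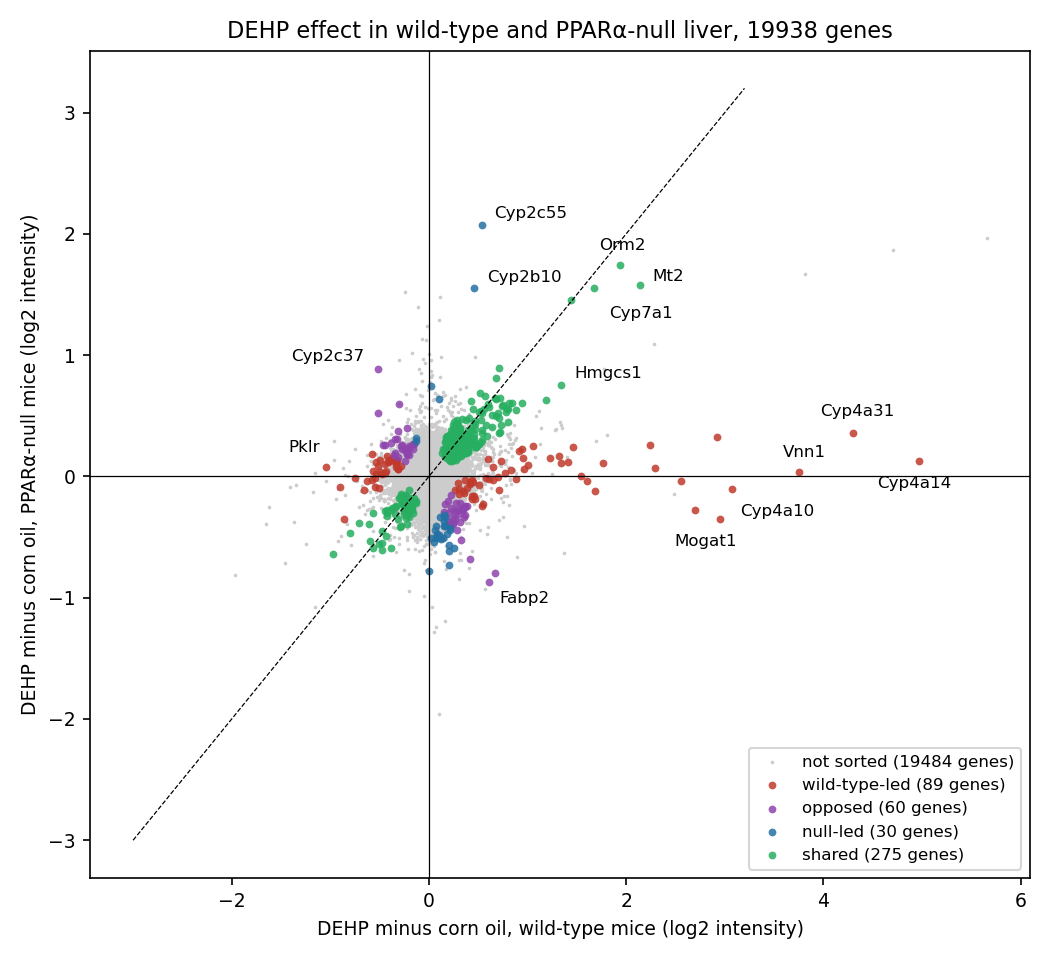
DEHP effect of each of 19938 genes in wild-type mice (x axis, log2 intensity, DEHP minus corn oil) and in PPARα-null mice (y axis, same unit), with 1 point per gene coloured by class and the dashed line marking equal effects. The wild-type-led Cyp4a genes, Vnn1 and Mogat1 lie far to the right near 0 on the y axis, Cyp2c55 and Cyp2b10 lie high and left of the dashed line, and the shared genes lie along it.

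The number of calls turned on single animals, while the values of the leading genes moved little. Leaving out 1 animal at a time gave from 61 interaction calls, without wild-type control WT-53, to 299, without null control KO-116. The count was 65 without null DEHP animal KO-122 and 86 without null control KO-115. It also moved by more than 1.5 times without any of the controls WT-52 (101), WT-54 (103), WT-55 (109) and KO-117 (104), or without the DEHP animals WT-56 (109) and KO-123 (113). Of the 179 genes 48 were called in all 15 of these fits, namely 30 wild-type-led, 14 opposed and 4 null-led genes. Where a gene below is said to hold in every leave-out fit, it is among them, or is a shared gene whose average effect was called in each of these fits.

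The wild-type-led genes held the largest of the called interactions. Of the 89 genes 55 were higher and 34 lower after DEHP in wild-type mice. All 89 were also called in the wild-type contrast, where 770 of all genes (3.86%) were called. In the null contrast 94 of all genes (0.471%) were called, among them 1 of these 89, Rdh5, a retinol dehydrogenase. It fell by 0.86 in wild-type and by 0.35 (adjusted p = 0.0351) in null mice. In 22 of the 89 the wild-type effect was at least 2-fold, and in none of them was the null effect. The rule of this class asks for a wild-type effect well above the null one. These counts therefore describe the class and are not separate evidence for it.

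The ω-hydroxylases of the Cyp4a family, which oxidize the far end of fatty acids, led the class. Cyp4a14 read log2 intensities of 7.87, 8.34, 9.52 and 8.12 in wild-type controls and 13.39, 13.43, 13.50 and 13.40 in wild-type mice on DEHP. In null mice it read 6.74, 4.99, 4.74 and 4.22 on corn oil and 5.85, 4.58 and 5.48 on DEHP. The wild-type groups were far apart and the null groups overlapped. The effect was 4.97 ± 0.44 (fold 31.3) in wild-type and 0.13 ± 0.48 (adjusted p = 0.951) in null mice, an interaction of 4.84 ± 0.65 (adjusted p = 0.00257). Cyp4a31 had an interaction of 3.95 ± 0.53 and Cyp4a10 of 3.18 ± 0.32 (adjusted p = 0.000157). All 3 held in every leave-out fit. They are related genes on chromosome 4, and how far their probe sets share signal was not tested.

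The rest of the ω-hydroxylase list did not follow these 3. Of its 11 measured genes 3 were called with a positive and 1 with a negative interaction, and the list's median interaction was -0.05 against -0.03 over all genes. Cyp4a12a and Cyp4a12b, also fatty acid hydroxylases of male liver, were in the shared class, with average effects of 0.36 ± 0.08 and 0.54 ± 0.10 (adjusted p = 0.0179 and 0.0061). The negative one was Cyp4f14, which hydroxylates eicosanoids and vitamins and is described with the opposed genes.

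In peroxisomal β-oxidation, which shortens very long fatty acids, the bifunctional enzyme Ehhadh stood first. It read 9.90, 10.16, 10.14 and 10.11 in wild-type controls and 12.75, 12.96, 13.42 and 12.86 after DEHP. The null mice read 10.19, 9.90, 9.64 and 9.97 on corn oil and 10.39, 9.86 and 10.49 on DEHP, so that only the wild-type groups were apart. The interaction was 2.60 ± 0.23 (ratio of the folds 6.06, adjusted p = 4.84e-05). Of 31 measured genes of this list 4 were called, all positive: Ehhadh, the thiolase Acaa1b (1.22 ± 0.22), the isomerase Ech1 (0.81 ± 0.14) and the thioesterase Acot8 (0.78 ± 0.15). Ehhadh and Acaa1b held in every leave-out fit, while Ech1 lost its call without KO-122 (adjusted p = 0.0505). Of the list 23 of 31 genes had a positive interaction (74.2%, against 43.2% of all genes), with a median of 0.21. Hacl1, an enzyme of α-oxidation of branched fatty acids, rose by 0.51 in wild-type (adjusted p = 0.00111) and by 0.53 in null mice (adjusted p = 0.014). Its interaction was -0.02 ± 0.11 (adjusted p = 0.954). None of 20 measured peroxisome biogenesis genes was called in the interaction by limma (4 had an unadjusted p below 0.05), and Pex3, which guides membrane assembly, was in the shared class with an average effect of 0.30 ± 0.06.

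Mitochondrial fatty acid oxidation was the list with the most positive calls, 8 of 28 measured genes and no negative one. Its called members included the acyl-CoA dehydrogenases Acadvl, Acadl and Acadm, which take the first step for very long, long and medium chains. Others were the trifunctional protein subunit Hadhb and the auxiliary enzymes Eci1 and Decr1, which handle double bonds. The thioesterases Acot1 and Acot2 were also called, of which Acot1 is the cytosolic form. Hadhb read 10.68, 10.85, 10.88 and 10.69 in wild-type controls and 11.40, 11.35, 11.69 and 11.45 after DEHP, against 10.36 to 10.55 in null controls and 10.37, 10.39 and 10.51 in null mice on DEHP. Its interaction was 0.70 ± 0.12 (adjusted p = 0.0142). Eci1 had an interaction of 0.91 ± 0.17, Decr1 of 0.78 ± 0.14, Acadvl of 0.61 ± 0.11, Acadl of 0.61 ± 0.13 and Acadm of 0.57 ± 0.11. The median interaction of the list was 0.32, from a median effect of 0.33 in wild-type and 0.07 in null mice. Hadhb and Decr1 held in every leave-out fit, and Acadvl lost its call without KO-122 (adjusted p = 0.0509). Hadh, the dehydrogenase for short chains, and the electron carrier Etfdh were shared, at average effects of 0.27 and 0.28.

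Acot1 and Acot2, which split acyl-CoA into free acid and CoA, are near-identical neighbours on chromosome 12 and may share signal. Acot1 read 7.06, 7.36, 7.57 and 6.80 in wild-type controls and 9.76, 9.70, 10.85 and 9.25 after DEHP. In null mice it read 8.71, 8.71, 8.77 and 8.81 on corn oil and 8.42, 8.01 and 9.0 on DEHP. Null controls were thus above wild-type controls, and the interaction was 2.97 ± 0.40 (adjusted p = 0.00257). Acot2 had an interaction of 1.99 ± 0.40 (adjusted p = 0.031), which lost its call in 9 of the 15 fits (up to adjusted p = 0.0888 without KO-122) and under limma's trend and robust setting.

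Genes of fatty acid uptake and binding formed the next group. The fatty acid transporter Cd36 read 7.81, 7.92, 7.95 and 7.80 in wild-type controls and 10.41, 10.31, 10.73 and 10.23 after DEHP, but 8.95, 8.02, 8.47 and 8.18 in null controls and 8.53, 8.19 and 8.37 in null mice on DEHP. The null groups overlapped entirely. The interaction was 2.59 ± 0.23 (ratio of the folds 6.03, adjusted p = 4.84e-05). Fabp4, the fatty acid binding protein typical of fat cells, had an interaction of 1.80 ± 0.28 (adjusted p = 0.00725), and Dbi, the acyl-CoA binding protein, of 0.46 ± 0.09. Of 4 other markers of fat cells 0 were called in the interaction by limma and 0 had an unadjusted p below 0.05, with summed intensities of 96 to 102 in wild-type controls, 91 to 136 in wild-type mice on DEHP, 94 to 103 in null controls and 98 to 104 in null mice on DEHP. Of 24 measured genes of the uptake list 4 had positive and 1 negative calls (median 0.24).

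Large interactions also fell on other steps of lipid handling. Mogat1, which makes diacylglycerol from monoacylglycerol, read 4.28, 4.22, 4.82 and 4.73 in wild-type controls and 7.35, 7.19, 8.04 and 7.29 after DEHP. Null mice read 4.51, 4.19, 4.23 and 4.25 on corn oil and 3.84, 4.05 and 3.93 on DEHP. The interaction of 3.31 ± 0.25 had the lowest p of all genes (adjusted p = 1.05e-05). Vnn1, a pantetheinase that makes cysteamine, had an interaction of 3.71 ± 0.40, with 11.12 in WT-58 against 9.67 to 9.86 in the other wild-type mice on DEHP. Retsat, which saturates retinol, had one of 1.64 ± 0.28, and Hsd17b11, a lipid droplet dehydrogenase, one of 1.29 ± 0.18. Serinc2, a membrane protein thought to carry serine into lipids, had an interaction of 2.22 ± 0.24 and the cathepsin Ctse of 1.65 ± 0.28. Cox6b2, an isoform of a cytochrome c oxidase subunit known mainly from testis, had one of 1.54 ± 0.16. All of these held in every leave-out fit. The lipoprotein lipase relative Lipg (1.08 ± 0.22) and the phospholipid carrier Pltp (1.23 ± 0.25) lost their calls in 6 and 8 of the 15 fits, up to adjusted p = 0.0949 without KO-122 and 0.0724 without KO-123.

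**Figure D2:**
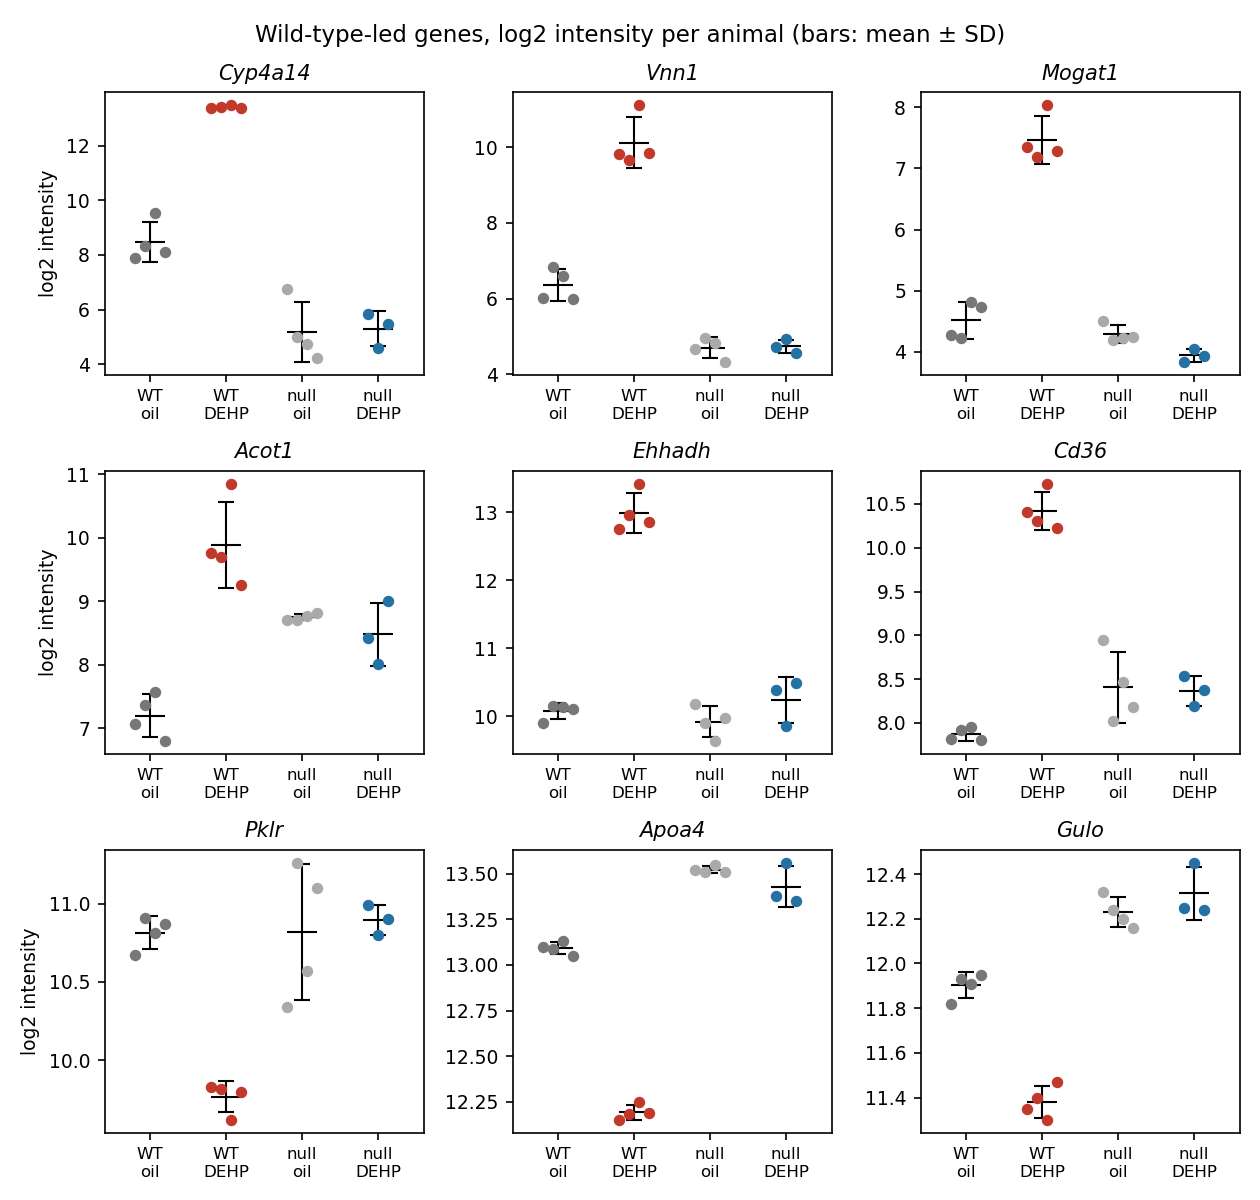
Log2 intensity (y axis) of 9 wild-type-led genes in every animal, in wild-type (WT) and PPARα-null mice on corn oil (oil) or DEHP, with 1 point per animal and bars of mean ± SD (n = 4, 4, 4 and 3). Wild-type mice on DEHP stand apart from wild-type controls in all 9 panels, while in null mice the DEHP points lie at or near the controls.

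PPARα binds pairs of the half-site in direct repeat with 1 base between them (DR1), and the upstream sequence of the genes was searched for this letter pattern. The pattern was AGGTCANAGGTCA, on both strands, with up to 2 mismatches, in the 250 bases before each RefSeq start (build GRCm38.p6). It stood in 3.24% of all 32851 promoter windows. Among the 55 wild-type-led genes that rose, 40 had a window, and 2 of their 50 windows (4%) held the pattern, those of Cd36 and Mogat1. Among the wild-type-led genes that fell it stood in 3 of 40 windows (7.5%). These sequences are shown because both genes are among the largest interactions. Capitals mark the match, which in Cd36 reads on the opposite strand and begins 63 bases before the start, and in Mogat1 51 bases before it.
Cd36, chr5:17835912-17835994, minus strand: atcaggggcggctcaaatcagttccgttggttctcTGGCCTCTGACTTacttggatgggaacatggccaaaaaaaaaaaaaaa
Mogat1, chr1:78510974-78511056, plus strand: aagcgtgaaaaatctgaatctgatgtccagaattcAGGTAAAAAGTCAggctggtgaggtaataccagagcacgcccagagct
Both matches carry 2 mismatches. The share among windows of the genes that rose (4%) was near that of all windows (3.24%) and of windows of measured genes (2.82%). Among the genes that fell the share was higher (7.5%) but rests on 3 windows, and the difference was not tested. A match describes letters and not a bound site, and a window without one says only that these letters are not within it.

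The 34 wild-type-led genes that were lower after DEHP in wild-type mice had effects of -0.29 to -1.05. Pklr, liver pyruvate kinase, read 10.67, 10.91, 10.81 and 10.87 in wild-type controls and 9.83, 9.82, 9.62 and 9.80 after DEHP, while null mice read 10.34, 11.26, 10.57 and 11.10 on corn oil and 10.99, 10.80 and 10.90 on DEHP. The wild-type groups were apart and the null DEHP values lay within the null control range. Its interaction was -1.13 ± 0.22 (adjusted p = 0.0245), lost in 6 of the 15 fits (up to adjusted p = 0.0599 without KO-122). Apoa4, an apolipoprotein made with triglyceride-rich particles, read 13.05 to 13.13 in wild-type controls and 12.15 to 12.25 after DEHP, against 13.51 to 13.55 and 13.35 to 13.56 in null mice. Its interaction was -0.81 ± 0.08 (adjusted p = 0.000172), and the call held in every leave-out fit.

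Glycogen phosphorylase Pygl (-0.53 ± 0.09) and the glucose 6-phosphate carrier Slc37a4 (-0.55 ± 0.11) fell with Pklr in wild-type mice. They gave the glucose list 3 negative and no positive calls among 26 genes, with 7 of 26 genes positive in sign (26.9%, against 43.2% of all genes) and a median of -0.15. Pygl held in every leave-out fit, and Slc37a4 lost its call in 10 of 15 (up to adjusted p = 0.077 without KO-115) and with arrays centred on the median. Gulo, the last enzyme of vitamin C synthesis, had an interaction of -0.61 ± 0.10 and Urad, which degrades a product of uric acid, of -0.76 ± 0.11, and both held in every leave-out fit. Hal and Prodh, which start the breakdown of histidine and proline, read -0.55 ± 0.12 and -0.53 ± 0.11. They were the 2 calls among 40 urea cycle and amino acid genes, of which 12 were positive in sign (30%, against 43.2% of all genes), with a median of -0.19. Both calls were lost with arrays centred on the median, and in 8 and 12 of the 15 fits (up to adjusted p = 0.0865 without WT-53 and 0.0801 without WT-52). The bile salt export pump Abcb11 read -0.46 ± 0.10 and was the 1 call among 27 bile acid genes. It lost that call under quantile normalization, with arrays centred on the median and in 11 of the 15 fits (up to adjusted p = 0.0932 without WT-53).

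The opposed genes had DEHP effects of opposite sign in the 2 genotypes. Of the 60 genes 33 were higher and 27 lower after DEHP in wild-type mice. Few passed the test in both arms: 35 were called in wild-type mice, 7 in null mice, 2 in both and 20 in neither. The DEHP and corn oil groups did not overlap in wild-type mice for 56 of the 60 (11.9% of all genes), in null mice for 49 (9.99%), and in both for 45 (2.02%). The 60 were sorted from these same animals by a called interaction with effects of opposite sign. Their separation therefore follows in part from the sorting. None of the 60 moved by 2-fold in either genotype.

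Fabp2, the intestinal type of fatty acid binding protein, was one of the 2 genes called in opposite directions. It read 9.32, 9.59, 9.30 and 9.18 in wild-type controls and 9.83, 9.89, 10.08 and 10.02 after DEHP. In null mice it went from 9.76, 9.29, 9.56 and 9.47 on corn oil to 8.50, 8.70 and 8.75 on DEHP. Neither pair of groups overlapped, and the 2 control groups did. Fabp2 rose by 0.61 ± 0.10 (adjusted p = 0.00353) in wild-type mice and fell by 0.87 in null mice (adjusted p = 0.00412). The interaction was 1.48 ± 0.15 (ratio of the folds 2.78, adjusted p = 0.000192) and between 1.40 and 1.56 in all leave-out fits.

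Cyp2c37, a cytochrome of the CAR target list, was the other, with the reverse signs. It read 10.07, 10.26, 10.15 and 10.20 in wild-type controls and 9.81, 9.79, 9.24 and 9.78 after DEHP, and 10.50, 10.58, 10.45 and 10.82 in null controls against 11.21, 11.41 and 11.81 after DEHP. Null mice on DEHP were thus highest and wild-type mice on DEHP lowest. It fell by 0.51 in wild-type (adjusted p = 0.0452) and rose by 0.88 ± 0.15 in null mice (adjusted p = 0.0213), an interaction of -1.40 ± 0.20 (adjusted p = 0.00422). Cyp2c54 read 11.13 to 11.24 and then 10.22 to 10.86 in wild-type mice, and 11.21 to 11.48 and then 11.60 to 12.08 in null mice. Its interaction was -1.04 ± 0.18 (adjusted p = 0.0163). Cyp2c50 went the same way in size (-0.78 ± 0.18) but missed the threshold (adjusted p = 0.0518). Cyp2c37 and Cyp2c54 held in every leave-out fit, at adjusted p up to 0.0489 for Cyp2c54 without KO-122. These 3 cytochromes are close copies in 1 cluster on chromosome 19, and how far their probe sets share signal was not tested.

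G0s2, an inhibitor of the triglyceride lipase ATGL, had an interaction of 1.46 ± 0.29 (adjusted p = 0.0285). It read 8.30, 9.10, 8.30 and 8.90 in wild-type controls and 9.51, 9.06, 9.48 and 9.24 after DEHP, against 9.29, 9.0, 9.85 and 9.64 in null controls and 8.87, 8.38 and 8.72 after DEHP. The wild-type groups overlapped, the null groups did not, and neither effect alone was called (adjusted p = 0.0786 and 0.106). Its interaction call was lost in 9 of the 15 fits, up to adjusted p = 0.0936 without KO-122. Cyp4f14 read 10.89 to 10.99 and then 10.21 to 10.65 in wild-type mice, and 10.78 to 10.97 and then 11.10 to 11.30 in null mice. Its interaction was -0.72 ± 0.12 (adjusted p = 0.016), called in every leave-out fit. Cyp1a2, a cytochrome of the aryl hydrocarbon receptor list, had one of -0.63 ± 0.11 and was the 1 call among 7 genes of that list, lost without KO-122 (adjusted p = 0.0615). Ido2, a tryptophan dioxygenase, had one of -0.69 ± 0.12 and Pipox, a peroxisomal oxidase of pipecolic acid, one of -0.54 ± 0.09, and both held in every leave-out fit.

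Of 32 measured plasma factors of complement and coagulation 31 had a negative interaction (96.9%, against 56.8% of all genes) and 1 a positive one, with a median of -0.27. Limma called 4 of them, all negative. Their median effect was -0.15 in wild-type mice, against 0.15 in nulls. The called ones were the thrombin inhibitor Serpind1 (-0.45 ± 0.08), coagulation factor F7 (-0.49 ± 0.09), the complement subunit C8g (-0.37 ± 0.07) and coagulation factor F5 (-0.46 ± 0.10). Serpind1 read 11.78 to 11.88 and then 11.59 to 11.64 in wild-type mice, and 11.69 to 11.79 and then 11.92 to 12.04 in null mice, with no overlap in either. Serpind1 held in every leave-out fit. F7 lost its call without KO-122 (adjusted p = 0.0598) and C8g in 7 of 15 fits (up to 0.0668 without KO-122). With arrays centred on the median the list's median was -0.23 and 2 of these calls stood, and under quantile normalization it was -0.26 with 6 calls.

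Of 33 proteasome subunits 32 had a positive interaction (97%, against 43.2% of all genes), with a median of 0.25, and 5 were called, all positive. They were Psma1, Psma3, Psma5 and Psma7, parts of the outer rings of the core particle, and Psmb7, a catalytic subunit. Psma7 read 9.73, 9.71, 9.67 and 9.70 in wild-type controls and 9.99, 9.95, 10.10 and 9.96 after DEHP, and 9.61, 9.49, 9.62 and 9.77 in null controls against 9.41, 9.22 and 9.30 after DEHP. Its interaction was 0.61 ± 0.10 (adjusted p = 0.00919). Psma7 and Psma3 (0.66 ± 0.11) held in every leave-out fit, while Psma1 lost its call in 3 of them, without WT-53, KO-115 or KO-122 (up to adjusted p = 0.0681).

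Of 55 subunits of oxidative phosphorylation 44 had a positive interaction (80%, against 43.2% of all genes) and 3 were called, the complex I subunit Ndufa3 (0.38 ± 0.08) and the cytochrome c oxidase subunits Cox4i1 (0.44 ± 0.10) and Cox6a1 (0.52 ± 0.12). The list's median was 0.28, from 0.08 in wild-type and -0.17 in null mice. All 3 calls were weak: they were lost in 10, 13 and 12 of the 15 fits, up to adjusted p = 0.0945, 0.112 and 0.104 without KO-122. The interactions themselves ran from 0.36 to 0.41, 0.35 to 0.52 and 0.40 to 0.58 in these fits. Cox4i1 and Cox6a1 also lost theirs under quantile normalization and with arrays centred on the median. Small mitochondrial proteins outside that list were among the opposed genes, with Atp5mpl, a small protein of the ATP synthase, at 0.73 ± 0.12, the import factor Timm8a1 at 0.68 ± 0.12, the copper chaperone Cox17 at 0.68 ± 0.12, the chaperonin partner Hspe1 at 0.56 ± 0.10 and Fam136a at 0.86 ± 0.14. Atp5mpl, Hspe1 and Fam136a held in every leave-out fit, and Timm8a1 and Cox17 lost their calls without KO-122 (adjusted p = 0.0505 and 0.0542). Cox19, also opposed, lost its call in 11 of the 15 fits (up to adjusted p = 0.104 without KO-122). These genes were picked from the opposed class and not from a list of small mitochondrial proteins. Cytosolic ribosomal proteins, a list chosen after their values were seen, had a positive interaction in 52 of 61 genes (85.2%), with 4 called (Rps12, Rps13, Rps21 and Rps28) and a median of 0.22.

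**Figure D3:**
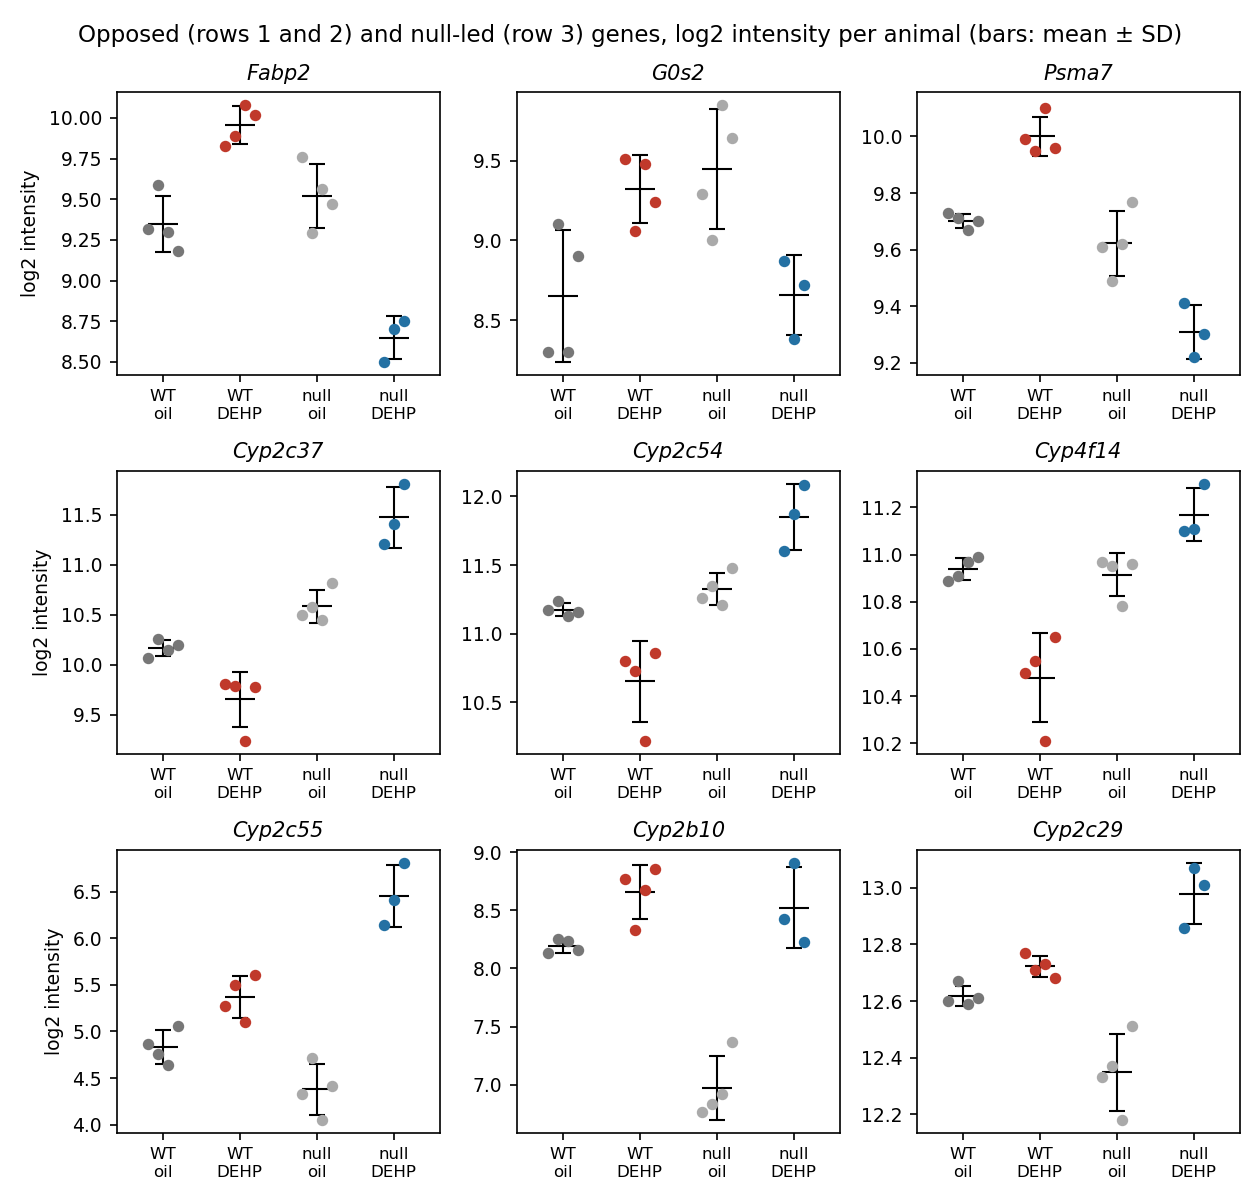
Log2 intensity (y axis) of 6 opposed genes (Fabp2, G0s2, Psma7, Cyp2c37, Cyp2c54, Cyp4f14) and 3 null-led genes (Cyp2c55, Cyp2b10, Cyp2c29) in every animal, with 1 point per animal and bars of mean ± SD (n = 4, 4, 4 and 3). DEHP moves Fabp2 up in wild-type and down in null mice and Cyp2c37 the other way, and Cyp2b10 starts lower in null controls than in wild-type controls.

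Most null-led genes were lower after DEHP in null mice. Of the 30 genes 24 were lower and 6 higher, and 22 were called in null mice and none in wild-type mice. The 24 included Rps12, Rps13, Rps21, Rps28, Psma3, Cox4i1 and Cox6a1, and the 6 included 3 cytochromes of the CAR target list, Cyp2c55, Cyp2b10 and Cyp2c29. Cyp2c55 had the largest interaction of the class. It read 4.87, 4.76, 4.64 and 5.06 in wild-type controls and 5.27, 5.50, 5.10 and 5.61 after DEHP, and 4.33, 4.72, 4.05 and 4.41 in null controls against 6.14, 6.41 and 6.81 after DEHP. Null mice on DEHP were above every other group. The effect was 0.54 ± 0.16 (adjusted p = 0.0716) in wild-type and 2.08 ± 0.17 (fold 4.22, adjusted p = 3.86e-05) in null mice, an interaction of -1.54 ± 0.23 (adjusted p = 0.00604) that held in every leave-out fit.

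Cyp2b10, the classic CAR target, had an interaction of -1.09 ± 0.22 (adjusted p = 0.0308). It read 8.13, 8.25, 8.24 and 8.16 in wild-type controls and 8.77, 8.33, 8.68 and 8.86 after DEHP, and 6.76, 6.83, 6.92 and 7.37 in null controls against 8.43, 8.91 and 8.23 after DEHP. The DEHP groups of both genotypes overlapped, at 8.33 to 8.86 and 8.23 to 8.91, while null controls lay below wild-type controls by 1.23 ± 0.15 (adjusted p = 0.000269). The larger effect in null mice, 1.55 ± 0.16 (adjusted p = 0.000635) against 0.46 ± 0.15 (adjusted p = 0.115), thus went with a lower starting level. Its interaction call was lost in 7 of the 15 fits, up to adjusted p = 0.0778 without KO-122. Cyp2c29 read 12.59 to 12.67 and then 12.68 to 12.77 in wild-type mice, and 12.18 to 12.51 and then 12.86 to 13.07 in null mice. Its interaction of -0.53 ± 0.10 (adjusted p = 0.0224) was lost in 5 of 15 fits (up to adjusted p = 0.0711 without KO-122) and with arrays centred on the median.

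The CAR target list as a whole had 5 negative and no positive interaction calls among 34 measured genes, with 7 of 34 positive in sign (20.6%, against 43.2% of all genes) and a median of -0.13. In null mice 7 of the 34 were called higher and none lower, where 0.16% of all genes were called higher and 0.311% lower. In wild-type mice 6 were called higher and 4 lower (2.29% and 1.57% of all genes). The list's median effect was 0.24 in null and 0.08 in wild-type mice. Several members were in the shared class. Cyp2c39 had effects of 0.60 and 0.60, the exporter Abcc3 of 0.32 and 0.36, and the retinaldehyde dehydrogenase Aldh1a1 of 0.30 and 0.34. The carboxylesterase Ces2a rose by 0.82 ± 0.13 in null mice, but its interaction of -0.71 ± 0.18 was not called (adjusted p = 0.0753). The organic anion transporter Slco1a4 fell by 1.15 in wild-type mice (adjusted p = 0.00337) and read 0.03 (adjusted p = 0.972) in null mice, but its interaction of -1.18 ± 0.29 was not called (adjusted p = 0.0658). The noncoding RNA Meg3 fell by 1.18 in wild-type mice, with an interaction of -1.05 ± 0.28 that was not called (adjusted p = 0.0833). Nr1i3, which encodes CAR, had an interaction of 0.07 ± 0.13 (95% interval -0.21 to 0.35).

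The other null-led genes described are Acsm2, Lyz1 and Ggcx. Acsm2, a medium-chain acyl-CoA synthetase, read 4.96 to 5.19 in wild-type controls and 5.0 to 5.21 after DEHP, and 4.90 to 5.06 in null controls against 5.53, 6.02 and 5.60 after DEHP. Its interaction was -0.72 ± 0.14 (adjusted p = 0.0213), lost without WT-53 (adjusted p = 0.0575) or KO-115. Lyz1, a lysozyme, fell by 0.59 in null mice and had an interaction of 0.84 ± 0.12 (adjusted p = 0.00338) that held in every leave-out fit. It read 5.22 to 5.43 in wild-type controls and 5.49 to 5.76 after DEHP. Null mice read 5.93 to 6.19 on corn oil and 5.39 to 5.57 on DEHP. The fall in null mice thus went with a higher starting level than in wild-type controls. Ggcx, the vitamin K dependent carboxylase, had an interaction of -0.45 ± 0.08, lost without WT-53 or KO-122 (up to adjusted p = 0.0636).

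The shared genes had effects of the same sign in both genotypes, as their rule required. Of the 275 genes 211 were higher and 64 lower. Single arms often did not pass on their own: 145 were called in wild-type mice, 21 in null mice, 16 in both and 125 in neither. A missed interaction call does not show equal effects. For 269 of the 275 the 95% interval of the interaction excluded a difference of 1 log2 in either direction, and for 220 a difference of 0.5. The rule of the class already limits the interaction to 0.5 of the larger effect. These counts thus follow in part from the sorting and do not show equal effects.

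Enzymes of cholesterol synthesis were the fullest of the shared groups. Of 21 measured genes 15 were shared and 16 were called higher in the average effect (1.96% of all genes). None was called in the interaction by limma (3 had an unadjusted p below 0.05). The interaction was positive in 16 of the 21 (76.2%, against 43.2% of all genes), with a median of 0.07. The median effect was 0.53 in wild-type and 0.45 in null mice. Hmgcs1, which makes HMG-CoA, read 10.02, 9.93, 9.72 and 10.10 in wild-type controls and 10.95, 11.16, 11.53 and 11.50 after DEHP, and 11.08, 10.39, 10.55 and 10.49 in null controls against 11.40, 11.38 and 11.38 after DEHP. Neither pair overlapped. Its average effect was 1.05 ± 0.11 (adjusted p = 9.07e-05), and it rose in wild-type (1.34, adjusted p = 7.9e-05) and in null mice (0.76, adjusted p = 0.0455). The interaction of 0.59 ± 0.21 was not called (adjusted p = 0.221, 95% interval 0.13 to 1.04). Idi1, the isomerase of the isoprene unit, rose by 0.68 ± 0.12 and 0.64 ± 0.13, with an interaction of 0.05 ± 0.17. Mvd, Cyp51, Fdft1, Lss and Dhcr7, other enzymes of the pathway, had average effects of 0.91, 0.71, 0.68, 0.62 and 0.56. The interaction of Mvd, 0.56 ± 0.24, was not called by limma (adjusted p = 0.307, 95% interval 0.06 to 1.06). Sqle, squalene epoxidase, was the weakest of those named, at 0.45 ± 0.11 (adjusted p = 0.0421), lost in 11 of the 15 fits (up to adjusted p = 0.099 without KO-122) and under quantile normalization. Pmvk, a kinase of the same pathway, was not shared by the rule, with 0.94 in wild-type and 0.23 in null mice. Its interaction of 0.71 ± 0.21 was not called by limma (adjusted p = 0.123, 95% interval 0.26 to 1.16).

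SREBP2 binds sterol response elements (SRE), and the letters TCACNCCAC were searched on both strands with no mismatch in the same windows. They stood in 1.05% of all 32851 windows, in 1 of 20 windows of the cholesterol list (5%), that of Hmgcs1, and in 5 of 281 windows of shared genes (1.78%). For the direct repeat with 4 bases between half-sites (DR4), which CAR and PXR bind, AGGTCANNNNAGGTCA with up to 2 mismatches stood in 2.57% of all windows, in 8 of 281 windows of shared genes (2.85%) and in 1 of 28 of null-led genes (3.57%). The 2 direct repeats have the same half-sites and can overlap each other. The windows of Hmgcs1 and Cyp3a11 are shown because both genes were shared, with the match in capitals.
Hmgcs1 (SRE), chr13:119690179-119690257, plus strand: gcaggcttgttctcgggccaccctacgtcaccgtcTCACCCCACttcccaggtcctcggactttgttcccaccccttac
Cyp3a11 (DR4), chr5:145879976-145880061, minus strand: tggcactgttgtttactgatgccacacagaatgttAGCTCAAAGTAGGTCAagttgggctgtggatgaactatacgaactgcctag
The match of Cyp3a11 carries 1 mismatch and that of Hmgcs1 none, and they begin 172 and 137 bases before the start. These coordinates too are of GRCm38.p6.

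Cyp3a11, the main PXR target of mouse liver, read 11.73 to 11.80 in wild-type controls and 12.11 to 12.32 after DEHP, and 11.78 to 12.16 in null controls against 12.19, 12.42 and 12.58 after DEHP. Its average effect was 0.43 ± 0.07 (adjusted p = 0.00203) and its interaction 0.07 ± 0.13 (95% interval -0.21 to 0.36). Cyp3a44 (0.80 ± 0.12) and Cyp3a13 (0.57 ± 0.08) were shared as well. None of 14 measured PXR targets was called in the interaction by limma (7 had an unadjusted p below 0.05), while 6 were called higher and 1 lower in the average effect. Of 40 genes of the NRF2 and glutathione list, which covers defence against oxidants, none was called in the interaction by limma (14 had an unadjusted p below 0.05). Gstm4, Gsr and Pgd of that list were shared, at average effects of 0.66, 0.29 and 0.30.

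The largest shared rises were in stress and plasma proteins and in bile acid synthesis. Mt2, a metallothionein that binds zinc, read 8.55, 9.70, 10.04 and 8.73 in wild-type controls and 11.92, 11.16, 11.71 and 10.77 after DEHP, and 8.34, 9.61, 10.44 and 10.03 in null controls against 11.40, 11.83 and 10.31 after DEHP. The wild-type groups were apart, and in null mice 1 DEHP animal, KO-123, lay within the control range. The average effect was 1.86 ± 0.33 (fold 3.62, adjusted p = 0.00498) and the interaction 0.56 ± 0.65 (95% interval -0.82 to 1.95). Orm2, an acute phase protein, had an average effect of 1.84 ± 0.24 and an interaction of 0.19 ± 0.49, and Mt1 of 1.45 ± 0.26 and -0.01 ± 0.51. Cyp7a1, which sets the pace of bile acid synthesis, read 8.85, 9.25, 8.93 and 9.79 in wild-type controls and 11.41, 10.08, 10.82 and 11.21 after DEHP, and 8.82, 9.54, 7.38 and 9.39 in null controls against values between 9.74 and 11 after DEHP. Its average effect was 1.61 ± 0.30 (fold 3.06, adjusted p = 0.00786), with an interaction of 0.13 ± 0.61. These 4 intervals are wide, so a difference of 1 log2 between genotypes was not excluded for them. The other acute phase genes Saa1, Saa2 and Lcn2 had large but uneven interactions that were not called (2.85 ± 0.85, 3.70 ± 0.91 and 2.14 ± 0.87, adjusted p = 0.127, 0.0675 and 0.288). Among null mice on DEHP, KO-123 stayed within the control range for all 3. The neutrophil markers, 10 genes of which 0 were called in the interaction (3 had an unadjusted p below 0.05), summed to 250 to 287 in wild-type controls, 321 to 412 in wild-type mice on DEHP, 260 to 371 in null controls and 295 to 363 in null mice on DEHP, and their part in these values was not tested.

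Shared falls were smaller. Omd, a matrix proteoglycan, had an average effect of -0.80 ± 0.16 (adjusted p = 0.00941) and Ak4, an adenylate kinase of mitochondria, of -0.58 ± 0.09 (adjusted p = 0.00177). Ak4 read 8.84 to 9.11 and then 8.20 to 8.75 in wild-type mice, and 8.75 to 9.24 and then 8.32 to 8.47 in null mice. The zinc importer Slc39a4 fell in both genotypes, by 0.47 in wild-type (adjusted p = 0.0161) and by 0.61 in null mice (adjusted p = 0.0329), while the zinc-binding Mt1 and Mt2 were higher. Id1, an inhibitor of helix-loop-helix factors, had an average effect of -0.49 ± 0.08 and the glutathione transferase Gstp3 of -0.55 ± 0.06.

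**Figure D4:**
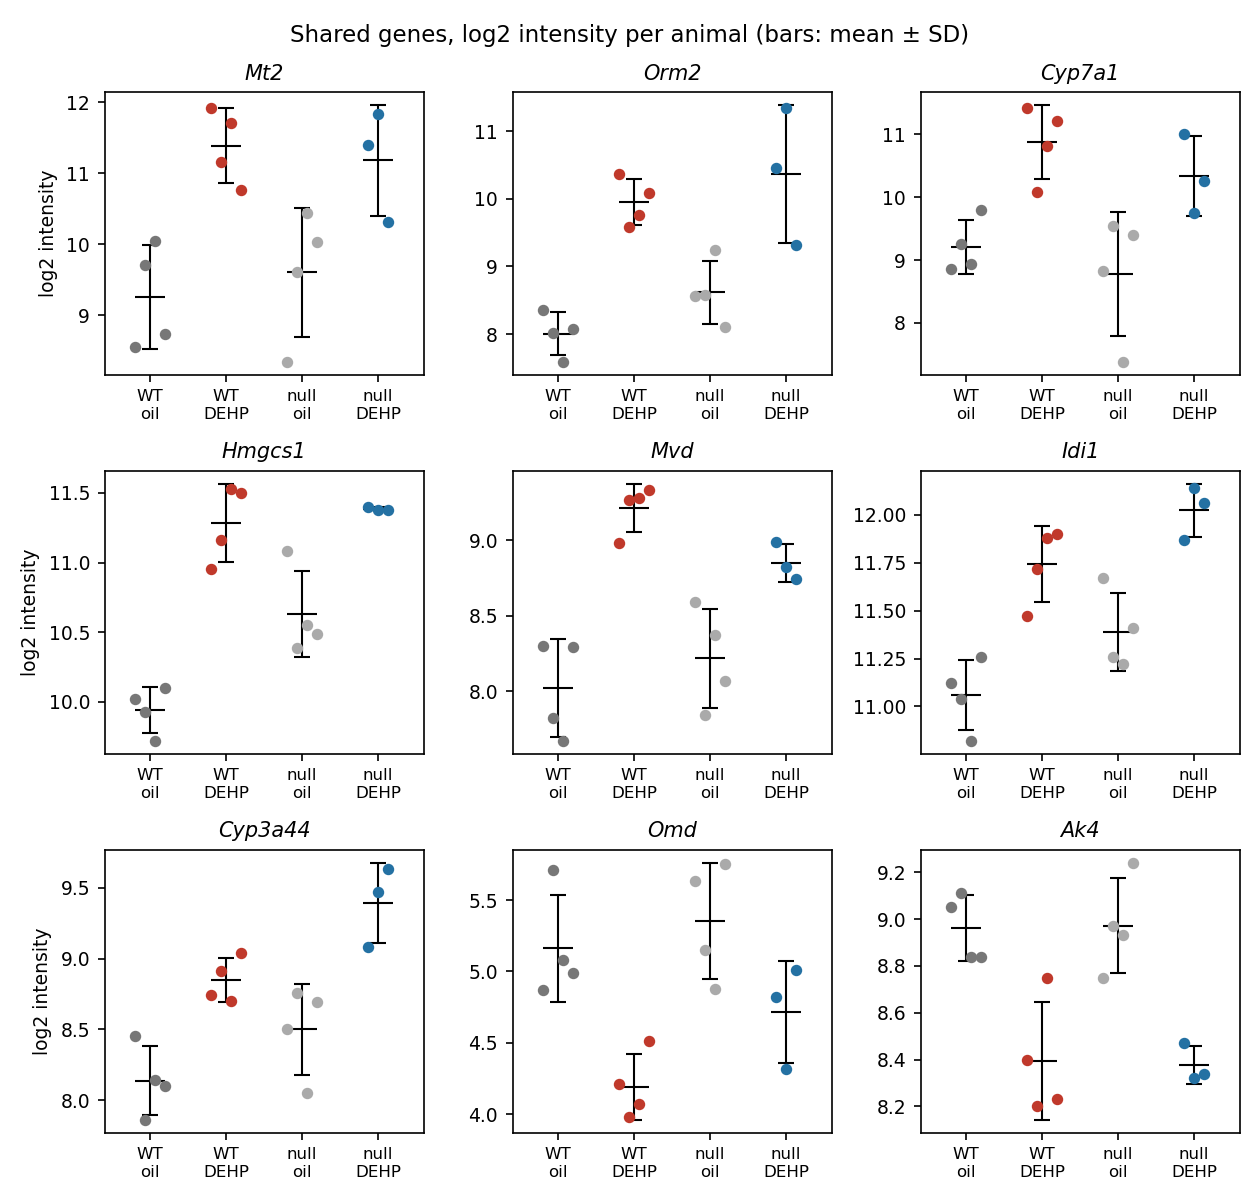
Log2 intensity (y axis) of 9 shared genes in every animal, with 1 point per animal and bars of mean ± SD (n = 4, 4, 4 and 3 from left to right). In both genotypes the DEHP points lie above corn oil for Mt2, Orm2, Cyp7a1, Hmgcs1, Mvd, Idi1 and Cyp3a44 and below it for Omd and Ak4, with 1 or more null animals overlapping for Mt2 and Omd.

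Each genotype's calls were then read in the other genotype, whose animals are separate. Over all 19938 genes 10883 effects were positive and 9055 negative in null mice. In wild-type mice 8979 were positive and 10959 negative, with a median of -0.015. Of 456 genes called higher in wild-type mice 332 had a positive effect in null mice, with a median of 0.121 against 0.014 over all genes, and 15 of them were called higher there. Of the 770 genes called in wild-type mice 124 were called in the interaction (89 wild-type-led and 35 opposed), 145 were shared and 501 were not sorted. Of the 46 that rose at least 2-fold in wild-type mice 21 were wild-type-led, 6 shared and 19 not sorted, and their median in null mice was 0.262. Of 314 genes called lower in wild-type mice 178 had a negative effect in null mice, with a median of -0.018. For the 32 genes called higher in null mice the median in wild-type mice was 0.260, and 27 of the 32 were positive there. For the 62 called lower in null mice it was 0.025, with 37 of 62 positive. The effects of both genotypes correlated across genes at Pearson's r = 0.18 over all genes and 0.50 over the 770, where genes are not independent replicates.

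**Figure D5:**
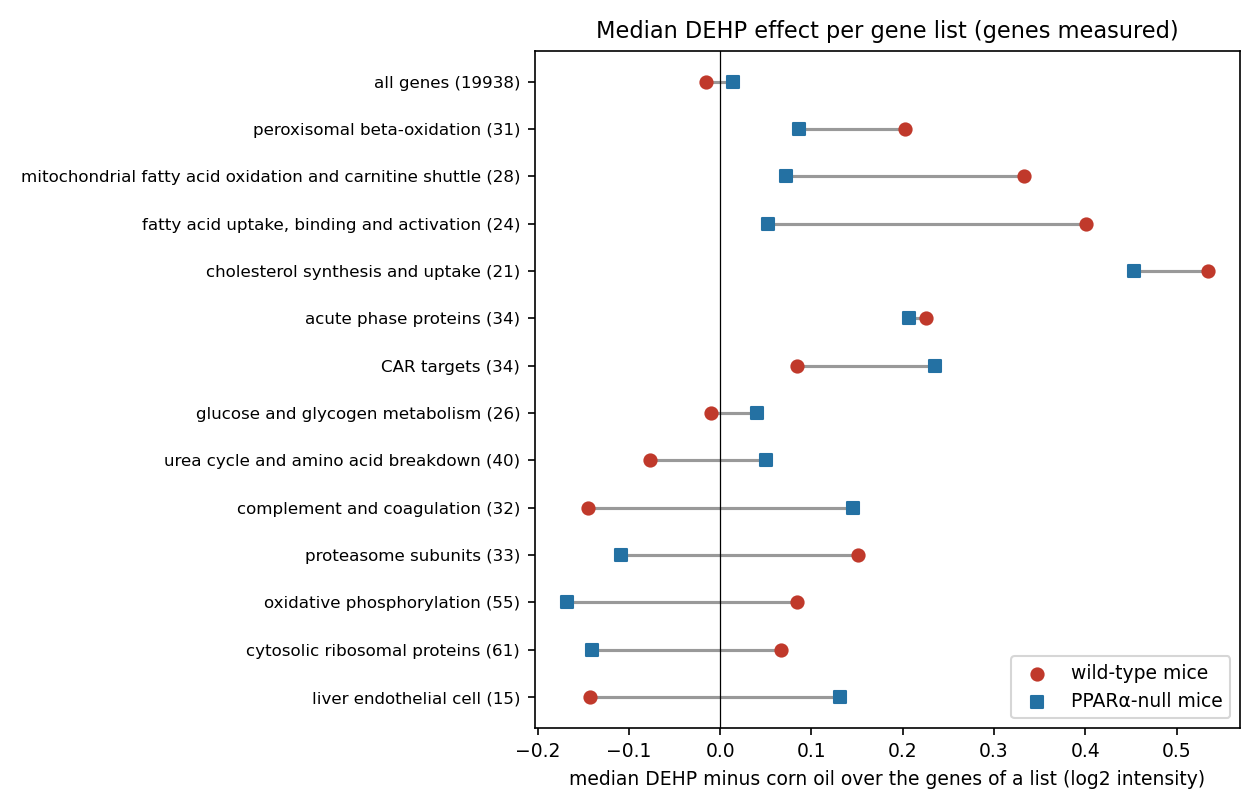
Median DEHP effect (x axis, log2 intensity, DEHP minus corn oil) over the measured genes of 13 lists and of all genes, in wild-type (circles) and PPARα-null mice (squares), with the number of genes in brackets. The fatty acid lists lie further right in wild-type mice, CAR targets further right in null mice, cholesterol synthesis far right in both, and complement, proteasome and oxidative phosphorylation on opposite sides of 0.

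At the edge of the call, Atp6v0e (0.39 ± 0.09, adjusted p = 0.0493) and Cops5 (0.64 ± 0.14, adjusted p = 0.0495) were the last genes inside, and Pgp (0.52 ± 0.12, adjusted p = 0.0501) and Lrig3 (-0.37 ± 0.08, adjusted p = 0.0514) the first outside. The unadjusted p was below 0.05 for 2669 genes.

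Of the 11 lists of cell type markers only that of liver endothelial cells had interaction calls, 3 negative among 15 genes. They were the scavenger receptor Stab2 (-0.43 ± 0.08), Ehd3 (-0.66 ± 0.12) and the Fc receptor Fcgr2b (-0.53 ± 0.12), with 14 of 15 genes negative (93.3%, against 56.8% of all genes) and a median of -0.27. Ehd3 read 9.40 to 9.60 and then 8.78 to 9.09 in wild-type mice, and 9.25 to 9.46 and then 9.39 to 9.54 in null mice, and held in every leave-out fit. The summed intensity of the 15 markers ran from 4841 to 5453 in wild-type controls, 4142 to 4574 in wild-type mice on DEHP, 4880 to 5345 in null controls and 5305 to 5685 in null mice on DEHP. None of the 15 was at 0, the lowest being Lyve1 at a mean intensity of 72.5 in wild-type controls. With arrays centred on the median the list's median was -0.24 and 1 call stood. These markers moved in the same direction as the complement and coagulation genes, and their part in that result was not tested. The 9 hepatocyte markers summed to 97228 to 99689 in wild-type controls, 88736 to 93679 in wild-type mice on DEHP, 94292 to 99468 in null controls and 95604 to 99190 in null mice on DEHP, and were lower in wild-type mice on DEHP than in every other group, with no interaction call (1 had an unadjusted p below 0.05). Of 13 Kupffer cell and macrophage markers limma called none (0 had an unadjusted p below 0.05), and their summed intensity ran from 3068 to 3522 in wild-type controls, 2785 to 4214 in wild-type mice on DEHP, 3584 to 4561 in null controls and 3889 to 4694 in null mice on DEHP.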

How the data were processed

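Liver RNA of 15 animals was hybridised to Affymetrix arrays, 1 per animal, after total RNA was extracted with the mirVana kit and 300 ng of it labelled, per the labels' protocols. The authors deposited 1 table of positive intensity values on a linear scale, with array medians near one another. The submitters' normalization method was not given in the sources used here. A change common to all genes would be hidden by it. From the deposited intensities log2 values were taken, so each log2 fold rests on the authors' scaling. The platform annotation gave a single symbol to 21789 of 35494 probe sets, several to 1621 and none to 12084, and RefSeq held the gene of 21698. Only single-symbol probe sets were used. A gene measured by more than 1 of them (999 genes) was represented by its brightest, giving 19938 genes.

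Group means over all 15 arrays were fitted with limma 3.58.1 in R 4.3.3 (lmFit and eBayes, 11 residual and 4.68 prior degrees of freedom), with Benjamini-Hochberg adjustment over all genes. Summaries and figures used Python 3.11.15, pandas 2.3.3 and matplotlib 3.10.9. The labels give animal numbers, so p values measure the spread between animals, and the number of arrays limits the precision. On simulated data for the interaction with 19938 genes, 53 of 100 genes changed 1.5-fold and 94 of 100 changed 2-fold were recovered, and 10 of 157 calls were on unchanged genes. Genes named by rule were a fixed panel, the largest interactions of each class, the largest shared effects, and up to 3 called members of each of 31 pathway lists. Other called or shared members of a list, and the genes at the edge of the call, were named after their values were seen. Classes, panel and lists were chosen with earlier results of these data known. Probe sets annotated to microRNAs were not described, since the arm they measure is not matched. Motif letters were set with results known, and the sterol element after a longer form with a mismatch allowed, which matched more windows. Genomic sequence came only from the RefSeq promoter windows, and no protein sequence was used.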

Additional observations from a re-analysis of the deposited data

Results flagged for a closer look

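Single animals stood apart from the other 3 of their group for 24 of 309 groups of 4 values checked among the named genes, by Dixon's 95% critical value of 0.829 for the gap over the range. Chance alone gives about 1 in 20. All values here are log2 intensities. Among wild-type mice on DEHP, WT-58 was apart for 6 genes. It was high for Vnn1 at 11.12 (others 9.67 to 9.86), Cyp4a31 at 12.56 (12.31 to 12.32) and Acot2 at 10.73 (9.09 to 9.17). It was low for Cyp2c37 at 9.24 (9.78 to 9.81), Pklr at 9.62 (9.80 to 9.83) and Rrs1, a ribosome assembly factor, at 7.47 (7.76 to 7.78). In the same group WT-56 read 8.98 for Mvd (9.27 to 9.33) and 11.51 for Cox4i1 (11.40 to 11.41), WT-57 read 11.59 for Serpind1 (11.63 to 11.64), and WT-59 read 5.54 for Sap30 (5.71 to 5.74).

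Among null controls KO-115 was apart for 5 genes. It read 8.86 for Nr1i2, which encodes PXR (8.62 to 8.64), 5.87 for Cyp4a10 (4.86 to 5.01), 6.50 for Lipg (6.0 to 6.06), 9.41 for Mt1 (10.73 to 10.96) and 9.07 for Urad (9.22 to 9.25). KO-116 read 7.86 for Acot2 (8.10 to 8.14), 10.90 for Cyp2d37-ps (10.58 to 10.61), 6.05 for Gask1a (6.20 to 6.22) and 10.07 for Acadvl (10.24 to 10.27). KO-117 read 10.78 for Cyp4f14 (10.95 to 10.97), and KO-118 read 11.54 for Pygl (11.35 to 11.37). Among wild-type controls WT-52 read 8.83 for Alas1, the first enzyme of haem synthesis (10.08 to 10.14), and 11.31 for Bhmt2 (11.13 to 11.16), and WT-54 read 11.70 for Hal (11.87 to 11.88).

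The DEHP effects of the 2 genotypes differed by the interaction test itself for the 89 wild-type-led, 60 opposed and 30 null-led genes. For Cyp2c37 (-1.40) and Fabp2 (1.48) each genotype's own effect was also called, in opposite directions.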

How the results depend on the processing

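No paired analysis was possible because the groups share no animal number. Leaving out 1 animal at a time moved the counts as follows: interaction calls from 61 to 299, genes called in the average DEHP effect from 372 to 590, genes called for DEHP in wild-type mice from 433 to 812, null calls from 9 to 168, wild-type-led genes from 36 to 100, opposed genes from 19 to 113, null-led genes from 5 to 86, shared genes from 191 to 309, graded genes (called with the same sign, the smaller effect at least 0.5 of the larger) from 0 to 1, and the share of pathway genes in the gene lists called in the interaction from 3.45% to 8.38%, against 6.66% with all animals. The lowest counts came without KO-122 or WT-53, and the highest without KO-116 except for the average effect and shared genes (KO-115), the wild-type calls (KO-118) and the graded genes (KO-123). Among the values of named genes in these fits 1274 kept direction and side of the threshold, 262 lost their call, 7 gained one and 2 changed sign. The interaction of Ppara, -0.05 with all animals, ran from -0.190 without WT-58 to 0.035 without WT-59, and was 0.020 without WT-57. With only genes of mean log2 of at least 6, where fewer genes are tested, there were 574 interaction, 973 average and 432 null calls, with 217 wild-type-led, 216 opposed, 141 null-led and 463 shared genes and 16.7% of list genes called. With log2(value + 16) there were 418 interaction and 287 null calls, and 168 wild-type-led, 159 opposed and 91 null-led genes and 10.7% of list genes. With trend and robust there were 424 and 293 calls, and 167, 162 and 95 genes and 10.9% of list genes. Null calls were 32 with arrays centred on the median and 56 with array weights. With a share of 1/3 null-led genes were 18 and graded 1, and at adjusted p below 0.1 there were 212 wild-type-led, 205 opposed, 125 null-led and 465 shared genes and 13.2% of list genes. The alternatives for the lists were chosen after seeing the data. The cause of these shifts was not tested for any setting, the filter included. Among 103 named genes, calls were lost by 4 under quantile normalization, 12 with centring, 1 with trend and robust and 1 with array weights. The mean of all probe sets and log2(value + 16) lost none.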

Other observations

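Gene groups with no call in the interaction by limma included interferon-stimulated genes (0 of 29, 1 with an unadjusted p below 0.05), cell cycle and replication genes (0 of 41, 5 unadjusted), p53 and growth arrest genes (0 of 27, 5 unadjusted), clock genes (0 of 20, 3 unadjusted) and genes that differ between the sexes or follow growth hormone (0 of 36, 11 unadjusted). Of the 41 cell cycle genes 35 had a positive interaction (85.4%, against 43.2% of all genes). Negative ones made up 85.2% of 27 bile acid genes and 84.2% of 19 aldehyde dehydrogenases, against 56.8% of all genes. Skewed signs were thus not particular to the lists with several calls. Lipogenic enzymes had no interaction call either (0 of 26, 6 unadjusted), with a median effect of 0.14 in both genotypes. Single genes differed more than these medians: 5 of the 26 were called higher in wild-type and 0 in null mice (2.29% and 0.16% of all genes). Acacb rose by 1.35 in wild-type (adjusted p = 0.000164) and by 0.40 in null mice (adjusted p = 0.356). Its interaction of 0.95 ± 0.24 was not called (adjusted p = 0.0685). Acly, which makes cytosolic acetyl-CoA for fat and sterol synthesis, was the 1 shared gene of that list, with an average effect of 0.52. Among 37 nuclear receptors and partners 1 was called, the oestrogen receptor Esr1 (-0.66), whose call was lost in 11 of the 15 fits without 1 animal, up to adjusted p = 0.1 without KO-122, and with arrays centred on the median.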
